A study of Olea europaea with 36 samples.

Results

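Contig_44219 is the olive contig that the study names CDC45, after its putative ortholog in Arabidopsis. It is 1 of the 37449 contigs on the array. It was taken here by its name, but with earlier results of these data known. The authors had picked this contig partly for its values on these same arrays, so the choice was not blind to them. CDC45, named for the cell division cycle, is a DNA replication protein. It joins the MCM complex and the GINS complex to form the helicase that unwinds DNA at replication origins, and it is loaded when origins fire at the start of S phase. Its transcript is therefore commonly found in tissue with dividing cells, such as the shoot apical meristem. In Arabidopsis the gene is also needed for meiosis in flower buds. The study measured olive (Olea europaea) shoot tips, since the activity of their meristems shapes the tree, and it set varieties and seedlings of contrasting architecture against each other.

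The sequences that the study gives for this contig are those of its RT-qPCR primers. They were not matched to the array probe, whose sequence was not at hand. Both primers are 20 bases long.
Contig_44219 forward: tctcaaggatgggacaaagg
Contig_44219 reverse: gttgcaatgtaggacgagca
They are written 5′ to 3′, with no part in capitals. The position of the gene in the olive genome was not analysed here.

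RNA was hybridized to 36 one-colour NimbleGen oligonucleotide arrays, 3 for each of 12 groups. Of these, 5 groups were varieties: dormant meristems of Picual, and active meristems of Picual, Arbequina, Chiquitita and Arbosana. Chiquitita descends from a cross of Picual and Arbequina and has a compact shrubby canopy. The other 7 groups were seedling pools, all of active meristems. From Picual x Arbequina came the pools of short internodes (SILe) and long internodes (LILe), and those of thin trunks (SmaD, small diameter) and thick trunks (LarD, large diameter). From Chiquitita x Arbosana came the pools of the Chiquitita-like canopy (ChiCa), of complex branching (Complex) and of simple branching (Simple). All trees grew in the field, and each harvest took the end of the shoot with its apex, so the RNA came from more than the meristem proper. A variety is 1 genotype, and a pool mixes tissue of several seedlings, so the 3 arrays of a pool are not 3 seedlings. The replicates are separately harvested shoot samples, and every p-value given here measures the spread between them and not between trees or seedlings. SmaD replicates 2 and 3 carry short internodes as their feature label and were used as SmaD by their titles. CLV1 (Contig_43041), a receptor kinase that restrains the stem cells of the shoot apical meristem in Arabidopsis, was used here as a meristem marker. It lay between 11.28 and 13.80 on the log2 scale, above the median of its array in every case. Its lowest value was that of SILe replicate 3, and the next was 11.97. The study also pairs contigs with SYD (Contig_67514) and TPR1 (Contig_50371), which it describes as regulators of the meristem gene WUS. In Picual, SYD was at intensities of 161 to 778 in dormant and 318 to 7450 in active tips. TPR1 was at 37.3 to 91.5 and 52.9 to 143, below the median of each Picual array.

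Values are RMA-normalized intensities, 1 per contig and array, whose log2 was taken. Array medians lay between 9.25 and 9.64 on the log2 scale. Across contigs, 34 of the 36 pairs of replicates correlated at r = 0.947 to 0.992. The remaining pairs were those of SILe replicate 3, at 0.839 and 0.842 with the other SILe arrays. Its median, 9.25, was also the lowest. This array stands apart from its group, and comparisons and correlations that it enters are given with and without it.

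CDC45 was a contig of middle to upper intensity and differed 4.35-fold between the highest and the lowest group mean. From low to high, the mean log2 levels (± SD, n = 3 arrays each) were 9.04 ± 0.39 in dormant Picual, 9.17 ± 0.44 in Arbosana, 9.65 ± 0.09 in Arbequina, 9.93 ± 1.30 in SILe, 10.23 ± 0.11 in LarD and 10.37 ± 0.43 in SmaD. They went on with 10.64 ± 0.05 in LILe, 10.70 ± 0.46 in Chiquitita, 10.73 ± 0.23 in Simple, 10.92 ± 0.34 in active Picual, 10.98 ± 0.36 in ChiCa and 11.16 ± 0.31 in Complex. The order is a gradient with few clear steps. Of the 11 pairs of neighbours, 10 overlapped in their arrays and had a gap smaller than the SD of the 2 groups. The exception was the step of 0.47 between Arbequina and Arbosana, which was larger than their SD of 0.32, and whose arrays did not overlap. This tally rests on SILe replicate 3, which places SILe between Arbequina and LarD. Without that array SILe averaged 10.66, between LILe and Chiquitita, and LarD then followed Arbequina with a step of 0.59, larger than their SD of 0.098 and with no overlap, so that 2 of the 11 pairs were set apart. Within its array, CDC45 stood at percentile 41.6 to 50.9 of all contigs in dormant Picual and Arbosana and at 50.7 to 52.7 in Arbequina. In active Picual, ChiCa, Complex and Simple it stood at 63.3 to 75.9.

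**Figure D1:**
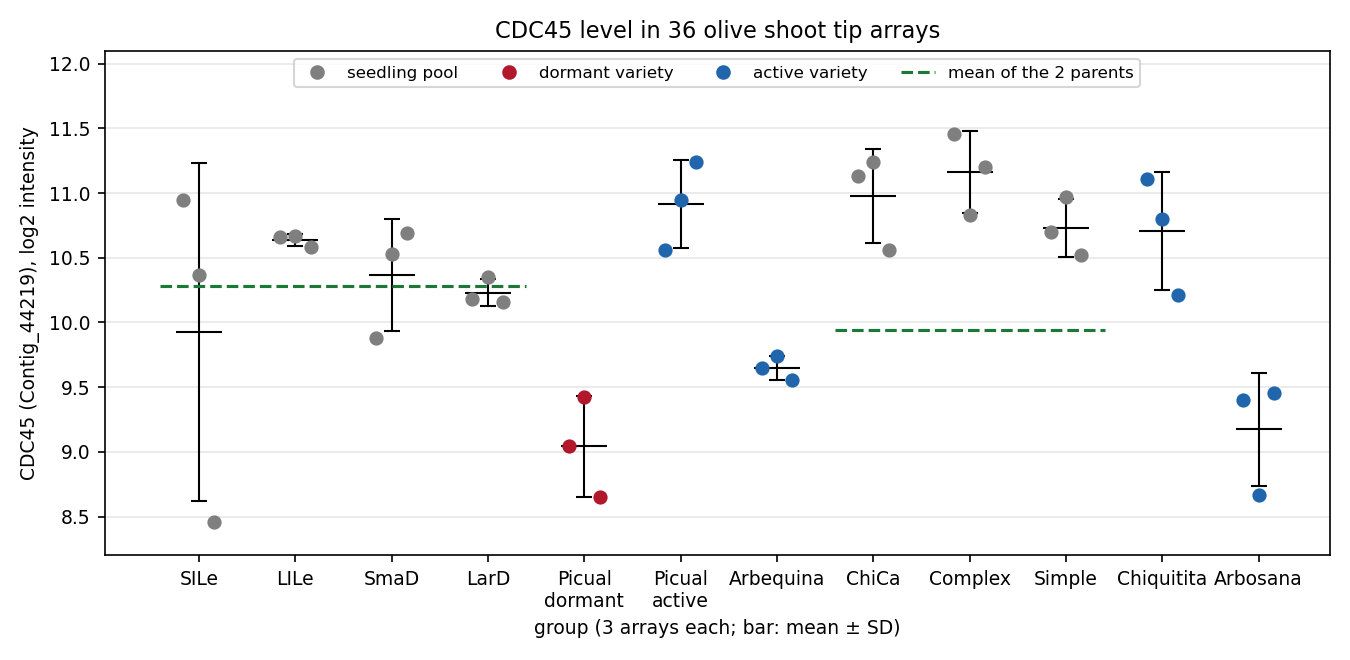
CDC45 level in each of the 36 arrays, as log2 intensity (vertical axis), by group (horizontal axis). Points are arrays, bars are the mean ± SD of 3 arrays and dashed lines are the mean of the 2 parents of each cross. Dormant Picual, Arbosana and Arbequina lie below all 3 arrays of active Picual, and all 9 arrays of the Chiquitita x Arbosana pools lie above their parental mean of 9.94.

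The groups held 74.2% of the variance of CDC45 over the 36 arrays, more than in 89.8% of all contigs. This rank is a description. The authors chose the contig for differing between Chiquitita and Arbosana on these arrays, which raises the share. The share without those groups was not computed. Its SD within groups was 0.49 on the log2 scale, near the median of 0.45 over contigs. A large part of that spread came from 1 array: without SILe replicate 3 the SD was 0.33, below the median of 0.40, and the groups held 86.7% of the variance. The replicates of LILe, Arbequina and LarD were the closest, with 1.06-fold, 1.14-fold and 1.14-fold between the highest and the lowest intensity. In SILe this ratio was 5.61-fold, and in the other 8 groups it ran from 1.37-fold to 1.87-fold.

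CDC45 was lower in dormant than in active Picual shoot tips. Its intensity was 529.5, 688 and 402 in the 3 dormant arrays, against 1509, 1974 and 2424 in the 3 active arrays. The groups did not overlap, and the highest dormant array lay below the lowest active one by a factor of over 2. The log2 difference was -1.87 (standard error 0.31, 95% interval -2.61 to -1.14), a 3.67-fold fall, with an adjusted p of 0.0175 from limma. CDC45 was called, a call being a change of at least 2-fold with an adjusted p below 0.05. By that rule 7.15% of all contigs were called in this comparison, and 4.57% were called lower in dormant tips. Arrays of dormant and active Picual did not overlap for 29.3% of all contigs. CDC45 was thus among many contigs that fell, and 4.23% of contigs had as large a fall or a larger one. A smaller share of dividing cells in the tip and less CDC45 RNA per cell cannot be told apart in these samples. The call was lost without active replicate 2 (adjusted p = 0.0799 from limma), active replicate 3 (0.0662) or dormant replicate 3 (0.0601), while the log2 difference stayed between -2.07 and -1.68. Over all alternatives run, the adjusted p ranged from 7.28e-06 to 0.109.

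Some arrays of active shoot tips were as low as the dormant ones. Among the 33 arrays of active shoot tips, 30 lay above the highest dormant array (688). The 3 below it were SILe replicate 3, at 352 the lowest of all, and Arbosana replicates 2 (407) and 1 (674). Arbosana replicate 3 was at 701.5, just above. The dormant arrays themselves were among the 6 lowest of the 36.

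**Figure D2:**
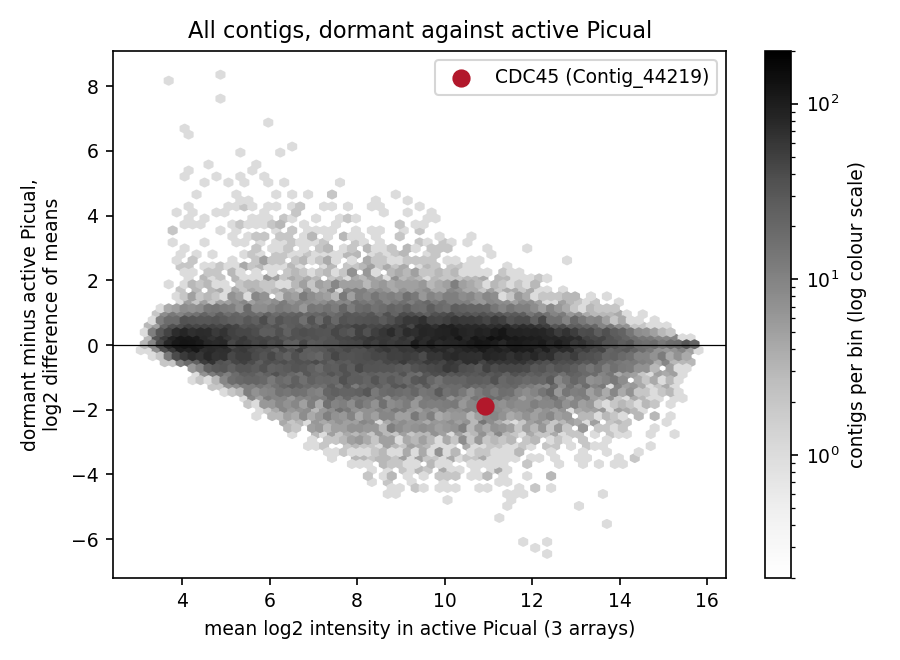
Log2 difference between dormant and active Picual (vertical axis) against the mean log2 intensity in active Picual (horizontal axis) for all 37449 contigs. Grey bins show the number of contigs on a log colour scale, and the red point is CDC45, with a difference of -1.87 at a level of 10.92.

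CDC45 also differed between the parents Picual and Arbequina, both with active meristems. Against the active Picual arrays given above, the Arbequina arrays were at 801, 854 and 753, so that all 3 lay below every active Picual array. The log2 difference, Picual minus Arbequina, was 1.27 (standard error 0.23, 95% interval 0.73 to 1.81), a 2.41-fold higher level in Picual, with an adjusted p of 0.0219 from limma. In this comparison 6.21% of all contigs were called and 2.71% were called higher in Picual. The arrays did not overlap for 30.3% of contigs. The call was lost without Arbequina replicate 1 (adjusted p = 0.105 from limma), Arbequina replicate 3 (0.118) or Picual replicate 2 (0.0779). Over all alternatives the adjusted p ran from 0.000257 to 0.137. This comparison and that of dormancy share the 3 arrays of active Picual.

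Seedlings of Picual x Arbequina lay on average near the mean of their parents. The mean of the 4 pools minus that of the 2 parents was 0.0091 on the log2 scale (standard error 0.27, 95% interval -0.57 to 0.59, adjusted p = 0.985 from limma). In this comparison 2.22% of all contigs were called. LILe was 0.36 above the parental mean of 10.28 with all 3 arrays, SmaD was 0.08 above it and LarD 0.05 below it. LarD was the 1 pool whose arrays overlapped neither parent. SILe was 0.35 below, but its replicates 1 and 2 were above the mean and replicate 3 far below. Without SILe replicate 3 the pools were 0.19 above their parents (adjusted p = 0.413 from limma). The small difference also turned below 0, at the lowest to -0.12, without Arbequina replicate 3, LarD replicate 2, active Picual replicate 1, SILe replicate 1 or 2, or SmaD replicate 2 or 3, so it has no settled direction. Chiquitita, a variety from the same cross, was at 2206, 1777 and 1182. Its arrays overlapped those of Picual and not those of Arbequina. The shares of all contigs with these patterns for LarD and for Chiquitita were not counted.

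No difference in CDC45 passed the test between the pools of opposite internode length. Intensities were 1975, 1327 and 352 in SILe, against 1616, 1630 and 1536 in LILe. The log2 difference, SILe minus LILe, was -0.71 (standard error 0.57, 95% interval -2.01 to 0.59, adjusted p = 0.991 from limma), where 0.00801% of all contigs were called. SILe replicate 3 decided its sign: the difference was 0.023 without that array (adjusted p = 0.995 from limma), and SILe replicates 1 and 2 had a mean log2 level of 10.66, 4.60-fold above replicate 3. The interval is wide and holds differences of over 2-fold downward.

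The pools of opposite trunk diameter overlapped as well. Intensities were 939, 1481 and 1652 in SmaD, against 1161, 1308 and 1146 in LarD. The log2 difference was 0.13 (standard error 0.29, 95% interval -0.52 to 0.78, adjusted p = 0.858 from limma), with 0.0134% of contigs called. SmaD replicate 1 was below all LarD arrays, and the 2 SmaD arrays whose labels conflict were above them. With SmaD replicate 1 alone the log2 difference was -0.36, and without SmaD replicate 3 it was -0.028, so the direction between these pools is not settled.

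**Figure D3:**
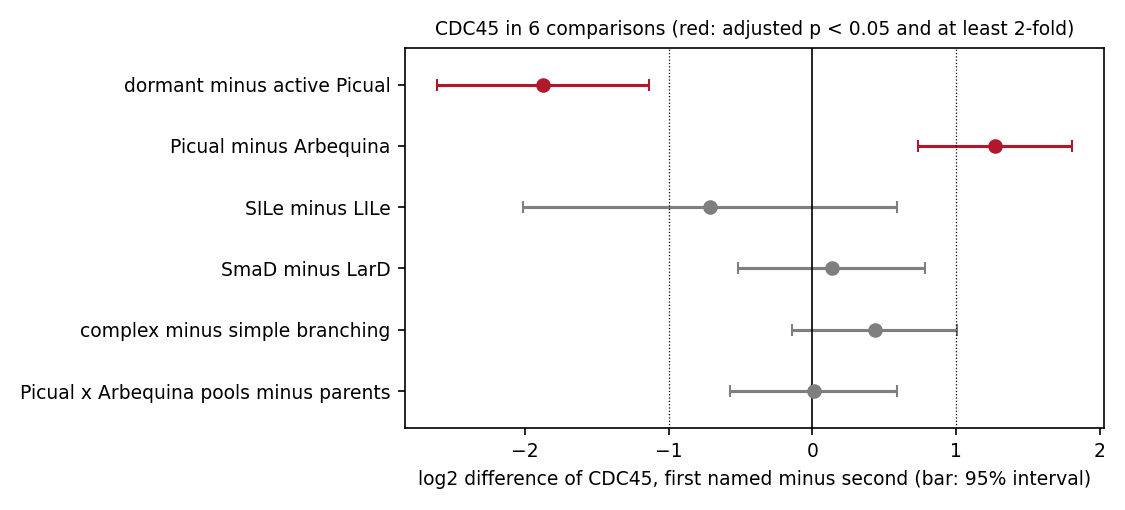
Log2 differences of CDC45 in the 6 comparisons tested (horizontal axis, first named minus second), with 95% intervals from limma. Red points passed an adjusted p of 0.05 and 2-fold; dotted lines mark 2-fold. Only dormant minus active Picual (-1.87) and Picual minus Arbequina (1.27) were called.

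Among seedlings of Chiquitita x Arbosana, the difference between complex and simple branching was not called, and their arrays overlapped. Intensities were 2817, 1825 and 2350 in Complex, against 1658, 2013 and 1473 in Simple. Complex held the single highest array of all 36, but its replicate 2 lay below Simple replicate 2. The log2 difference was 0.43 (standard error 0.26, 95% interval -0.14 to 1.01, adjusted p = 0.845 from limma), and 0.0561% of contigs were called. A 2-fold difference is at the edge of this interval.

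CDC45 was higher in Chiquitita and in its Chiquitita-like seedlings than in Arbosana. The authors chose this contig for that difference on these same arrays, so the values are a description and were not tested. Intensities were 2206, 1777 and 1182 in Chiquitita, against 674, 407 and 701.5 in Arbosana, a log2 difference of 1.53 or 2.89-fold. In ChiCa they were 2238, 2420 and 1512, and the log2 difference from Arbosana was 1.80 or 3.49-fold. Neither group overlapped with Arbosana. This was also the case for 28% of all contigs between Chiquitita and Arbosana and for 32.9% between ChiCa and Arbosana. The other pools of this cross were high as well. Complex (mean log2 11.16) and Simple (10.73) overlapped with Chiquitita (10.70) and not with Arbosana (9.17). The share of all contigs that show this was not counted. All 9 arrays of the 3 pools lay above the parental mean of 9.94, on average by 1.04 in ChiCa, 1.23 in Complex and 0.79 in Simple on the log2 scale. For how many contigs all 9 arrays lie above the parental mean was not counted either. In the seedlings of the other cross the pools lay around their parental mean, as given above. Whether the crosses differ in this was not tested, since Chiquitita and Arbosana were used in choosing the contig.

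The contigs whose level followed CDC45 most closely over the 36 arrays were Contig_57884 and Contig_29083, with Pearson's r of 0.95 and 0.93. Without SILe replicate 3 they were 0.94 and 0.92. In all, 14 contigs reached 0.9 and 222 reached 0.8, against 16 and 203 without that array. These correlations describe arrays that share their groups, and SILe replicate 3 and the dormant, Arbosana and Arbequina arrays lie together at the low end. With each group's mean subtracted, which leaves only the differences between replicates, r with CDC45 was 0.90 for both Contig_57884 and Contig_29083, and 0.81 and 0.86 without SILe replicate 3. Over the 12 group means it was 0.97 and 0.95, with or without that array. Both contigs were picked for the highest r of all, so these values describe them and test nothing. In Picual, Contig_57884 was at 439 to 655 in dormant tips, against 1374 to 1985 in active tips, and Contig_29083 was at 1186 to 1678, against 2375 to 3357. The log2 difference of Contig_57884, -1.59, was called, and that of Contig_29083, -0.94, was not. Running most opposite to CDC45 were Contig_44122 (r = -0.89) and Contig_10464 (r = -0.88). Contig_44122 was at 3057 to 5362 in dormant Picual, against 1778 to 3058 in active Picual. Its arrays overlapped, and its log2 difference of 0.85 was not called. Without SILe replicate 3 both correlations were -0.89. Contig_10464 was at 3226 to 7393 in dormant Picual, against 784 to 1403 in active Picual. The files give these 4 contigs no gene name.

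Of the 13 other contigs that the study discusses, CLV1 was most like CDC45, with r = 0.85 over 36 arrays, 0.93 over the 12 group means and 0.68 with group means subtracted. The last value rested largely on SILe replicate 3, without which it was 0.31, while r was 0.82 over the other 35 arrays and 0.94 over the group means. DWF4 (Contig_61776), which encodes a brassinosteroid biosynthesis enzyme, followed with r = 0.78, or 0.73 without that array. SPY (Contig_10295), a repressor of gibberellin signalling in Arabidopsis, ran against CDC45 with r = -0.63, or -0.55 without SILe replicate 3. With group means subtracted, r was 0.59 for DWF4 and -0.62 for SPY, but 0.25 and -0.29 without that array. In Picual both lay below the median of each array. DWF4 was at 23.1 to 115.7 in dormant and 101.8 to 192.5 in active tips, and SPY at 117.5 to 482.3 and 115.9 to 218.5. For TPR1 and SYD, r over 36 arrays was 0.44 and 0.20, and without SILe replicate 3 it was 0.47 and 0.0051. The authors picked most of these contigs on the same arrays for differing between Chiquitita and Arbosana, which bears on any correlation. Over the 27 arrays without Chiquitita, ChiCa and Arbosana, r was 0.83 for CLV1, 0.82 for DWF4, -0.57 for SPY, 0.28 for TPR1 and 0.58 for SYD. With SILe replicate 3 left out as well, these were 0.77, 0.76, -0.42, 0.27 and 0.43. In dormant Picual CLV1 was at 4009 to 10400, against 8830 to 11890 in active Picual, so that its arrays overlapped where those of CDC45 did not. Of the 13 contigs, 1 was called lower in dormant Picual (Contig_12843, a log2 difference of -2.84) and 1 higher (EDL2, Contig_40482, which encodes an F-box protein, with 1.49), where 7.15% of all contigs were called in either direction and 4.57% lower. CLV1 (-0.93), DWF4 (-1.28) and SPY (0.83) were not called. No gene names were at hand for the remaining contigs, so the replication genes that act with CDC45, such as those of the MCM complex, were not analysed here.

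**Figure D4:**
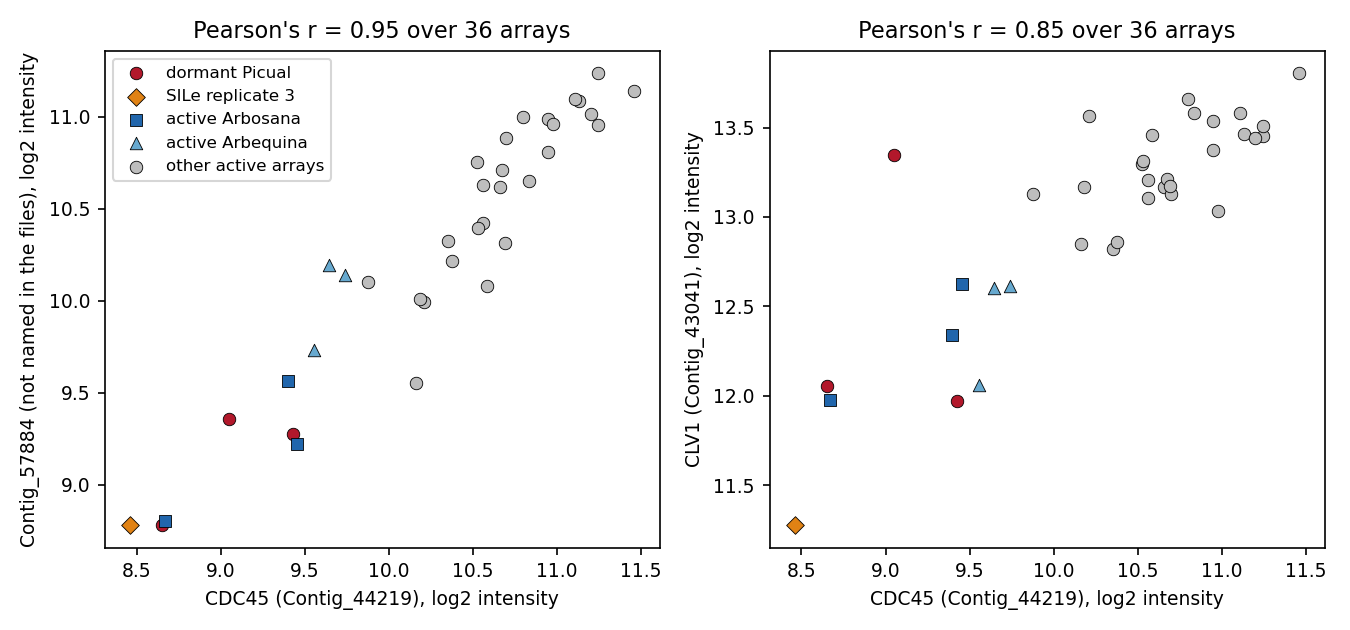
Log2 intensity of Contig_57884 (left) and CLV1 (right) against that of CDC45 in the 36 arrays. Dormant Picual, SILe replicate 3, Arbosana and Arbequina are marked and lie at the low end of CDC45, and r is 0.95 and 0.85.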

How the data were processed

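Arrays of shoot tip RNA were labelled, hybridized and scanned by NimbleGen procedures, and the authors normalized them with RMA. In the deposited table each contig has 1 linear normalized intensity in every array, from 6.74 to 62500, and the columns name the samples. A second table, whose 36 columns carry no sample name, was not used, so background and raw signal were not examined. The 3 arrays of a group set the precision of its mean.

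Log2 values of all 37449 contigs were fitted with limma 3.58.1 (lmFit, eBayes) in R 4.3.3. Dormant and active Picual, and Picual and Arbequina, were fitted on their own arrays, SILe and LILe and SmaD and LarD with Chiquitita, Complex and Simple with ChiCa, and the 4 pools with both parents. P-values were adjusted by Benjamini and Hochberg over all contigs. Calls needed a change of at least 2-fold and an adjusted p below 0.05. The fits were tested on simulated data. Besides CDC45, the 2 contigs of highest and of lowest correlation with it and the 3 most correlated of the 13 others in the paper were named. Contig_12843, EDL2, SYD and TPR1 were named after their values were seen. The contig, the comparisons and the lists were chosen with earlier results of these data known. Gene names come from the paper, and the reference gene table matched 0 contigs.

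Deviations of same-numbered replicates correlated across contigs at r = 0.218 to 0.287 for Picual and Arbequina and 0.083 to 0.488 for SmaD and LarD. Signs were mixed for Complex and Simple (-0.349 to 0.369) and for SILe and LILe (-0.209 to 0.04). For dormant and active Picual all were negative. The labels give no pairing, and whether the numbers pair any arrays was not tested. Alternatives were the methods' t-test, 1 fit over all arrays, a replicate block, a variance trend, quantile normalization, median centring, a filter on dim contigs, array weights and each replicate left out. A fit, the order of groups and the correlations of deviations over all arrays but SILe replicate 3 were added after seeing the data. Figures were drawn with matplotlib 3.10.9 in Python 3.11.15.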

Additional observations from a re-analysis of the deposited data

How the results depend on the processing

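Signal over background was not examined, and 3 arrays a group limit the precision. Dormant minus active Picual kept its direction in all 16 alternatives and was called in 10. The call was lost with the replicate block (log2 difference -1.87, adjusted p = 0.089 from limma), without 1 of 3 arrays, and in the methods' t-test on log2 and on linear values after Benjamini-Hochberg adjustment, though not before it. Leaving out each array gave -2.07 to -1.68. Deviations of same-numbered dormant and active arrays correlated at -0.441 to -0.131, and whether the numbers pair these arrays was not tested. Picual minus Arbequina kept its direction in all 15 alternatives, from 1.11 to 1.45, and was called in 10. It lost its call without 1 of 3 arrays and in both t-tests after adjustment. The replicate block changed no call there or in the comparisons of pools. With 1 array left out, SILe minus LILe ran from -1.22 to 0.023, SmaD minus LarD from -0.028 to 0.38, the pools minus their parents from -0.12 to 0.19 and Complex minus Simple from 0.28 to 0.60. With array weights SILe minus LILe was 0.011 and the pools minus their parents 0.21. With SmaD replicate 1 only, SmaD minus LarD was -0.36 and the pools minus their parents -0.11. The cause of these changes was not tested. Chiquitita minus Arbosana ran from 1.28 to 1.78 and ChiCa minus Arbosana from 1.55 to 2.01. Counts of called contigs over the fits with adjusted p moved more. For dormancy 2679 became 320 with the replicate block and 6321 over all arrays but SILe replicate 3. For Picual and Arbequina 2327 ran from 551 to 3332, and 5980 with array weights. For the pools and parents 832 ran from 482 to 1672, for internode length 3 from 0 to 26, for branching 21 from 3 to 134, and for trunk diameter 5 from 0 to 36, and 3709 with array weights. The methods' t-test, which is unadjusted, passed 4491 contigs for dormancy, 255 for internode length, 1015 for trunk diameter and 388 for branching on log2 values. Array weights did not converge for Complex and Simple.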
